A study of Homo sapiens with 8 samples.

Results

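Brain organoids grown by a pair of protocols, 3DProto1For and 3DProto2Xia, were compared; both started from the human embryonic stem cell line H1, which is an established line. The cells were chosen by the culture tag at the start of each cell name, 3 tags for each protocol. They came to 4970 of the 43693 cells and 6 of the 46 tags of a study of neural cultures, 2005 cells with a 1For tag and 2965 with a 2Xia tag. The labels define neither protocol and give no culture age, and the names of these 6 tags carry no drug. All cells were of the same line, and per the labels' protocols 2 to 3 organoids were pooled for a papain dissociation and the cells were then barcoded by split-pool single-cell RNA sequencing. Nothing states whether the 3 tags of a protocol were separate cultures, so p-values measure only the spread between tags, which may be technical. The tags are called 1For 1 to 3 and 2Xia 1 to 3 below.

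Neural organoids are clumps of stem cells that are led towards the nervous system and then grow and pattern themselves in suspension. The forebrain forms from the front of the neural tube, and in its ventral part DLX genes mark the progenitors that make GABAergic neurons. More posterior tissue is set apart by EN and PAX genes at the midbrain and by HOX genes from the hindbrain backwards, under the influence of WNT, retinoic acid and other signals. Cells outside the neural lineage, such as connective tissue and muscle, can also arise in organoids when pluripotent cells are not fully directed.

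The well barcode, the last part of a cell's barcode, decides which tag a cell gets, so the assignment of cells to protocols rests on these 6 sequences. They are shown 5′ to 3′ as in the cell names, with capitals at the positions where the barcodes of 1For 3 and 2Xia 2 differ from each other.
1For 1: GAgcACaa
1For 2: GTcgCGcg
1For 3: GTtaCGta
2Xia 1: CTatTTca
2Xia 2: ACtaTAta
2Xia 3: TCacTTta
Each tag had 1 well barcode and shared it with 0 of the other tags. The barcodes of 1For 3 and 2Xia 2 differed at 4 of 8 positions, and no pair of the 6 differed at fewer than 4.

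The tags held 331 to 1298 cells with a median of 7546 to 14178 counts per cell and 3624668 to 21711186 counts in all. The median mitochondrial share per cell was between 0.487% (1For 3) and 3.84% (1For 2). Every tag was present in each of the 8 sublibraries, which are portions of a single pool, so sequencing batch does not separate the protocols. Complete barcodes occurring in more than 1 sublibrary numbered 228 of 4734, and 0 were shared by cells of different tags.

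The profiles of 2 tags went against their labels. For each tag the counts of its cells were added up, scaled to the same library total (CPM, the usual count unit corrected for depth) and correlated across 13832 genes, which are not independent replicates. Pearson's r was 0.965 between 1For 1 and 1For 2, and 0.979 between 2Xia 1 and 2Xia 3. The tag labelled 1For 3 had r of 0.901 and 0.876 with 1For 1 and 1For 2, but 0.972 and 0.974 with 2Xia 1 and 2Xia 3. The tag labelled 2Xia 2 had r of 0.927 and 0.963 with 1For 1 and 1For 2, but 0.892 and 0.880 with 2Xia 1 and 2Xia 3. In each of 8 of 8 sublibraries taken separately, the cells labelled 1For 3 were nearer to 2Xia 1 and 3, and the cells labelled 2Xia 2 were nearer to 1For 1 and 2. Whether these tags were exchanged was not tested, and no tag was moved to the other protocol. Results are given first for all 6 tags as labelled and then without these 2.

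**Figure D1:**
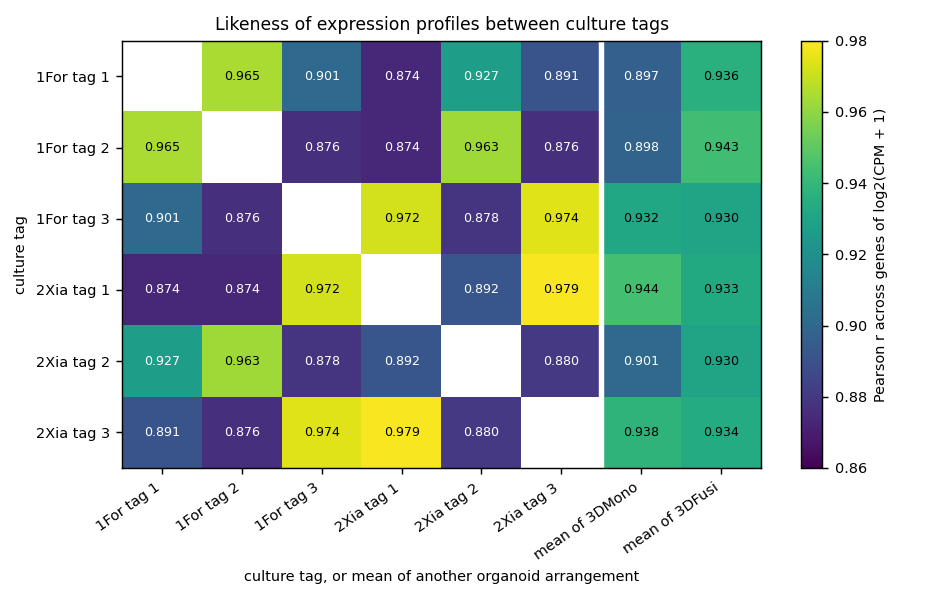
Pearson's r across 13832 genes of log2(CPM + 1) between the 6 culture tags (rows) and the same tags or the mean of the 3DMono and 3DFusi tags of the study (columns), with r printed and coloured. The tag labelled 1For 3 has its highest values with 2Xia 1 and 2Xia 3 (0.972 and 0.974), and the tag labelled 2Xia 2 its highest with 1For 2 (0.963).

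Against the other organoid arrangements of the study, the same split appeared. The 3 tags with the 2Xia 1 and 3 profile had r of 0.932 (labelled 1For 3), 0.944 (2Xia 1) and 0.938 (2Xia 3) with the mean of the 6 3DMono tags. The others had 0.897 (1For 1), 0.898 (1For 2) and 0.901 (labelled 2Xia 2). With the mean of the 10 3DFusi tags r was at most 0.943 in all 6, without such a split.

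Cells of the 6 tags were clustered and named "-like" from marker lists, which gave 29 clusters, of which 10 stayed unnamed. Mesenchymal-like cells, the collagen-making cells of connective tissue, made up 24.8% of 1For 1 (95% exact binomial interval 21.4% to 28.6%) and 34.3% of 1For 2 (31.5% to 37.2%). They made up 16.2% of the tag labelled 2Xia 2 (13.6% to 19.1%). None was found among 331 cells labelled 1For 3, 938 of 2Xia 1 or 1298 of 2Xia 3, which allows shares of up to 0.906%, 0.320% and 0.231% by a limit of 3 counts (upper ends of the two-sided exact intervals 1.11%, 0.392% and 0.284%). Intervals and such limits cover counting error only.

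Skeletal muscle-like cells followed the same tags. They were 3.79% of 1For 1, 8.32% of 1For 2 and 14.8% of the tag labelled 2Xia 2, and 0 cells in the other tags. Endothelial-like cells, which line vessels, were 0.690% of 1For 1, 3.84% of 1For 2 and 0.412% of the tag labelled 2Xia 2, and 0 cells elsewhere; this cluster of 49 cells held 6 of 8 neural crest or Schwann markers beside 7 of 8 endothelial ones, so its share may count cells of both kinds.

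The neuron classes of the tags differed. Non-cortical glutamatergic neuron-like cells, led by TFAP2B, RELN and SLC17A6, were 15.3% of 1For 1, 12.9% of 1For 2 and 24.7% of the tag labelled 2Xia 2. In 2Xia 1 and 2Xia 3 they were 0.533% and 0.154%, and none was found in the tag labelled 1For 3. Forebrain GABAergic neuron-like cells, led by DLX6-AS1, DLX5 and SP8, were 32.4% of 2Xia 1 (29.4% to 35.5%), 21.8% of 2Xia 3 (19.6% to 24.1%) and 10.6% of the tag labelled 1For 3 (7.48% to 14.4%). They were 0.172% of 1For 1, 0 of 1094 cells of 1For 2 and 0.137% of the tag labelled 2Xia 2. An unnamed cluster led by LHX6 and NXPH1 also held 7 of the 8 markers of this class, so the shares of 2Xia 3 (7.86% in that cluster) and 2Xia 1 (0.853%) leave out cells with these markers. Cells with general neuronal markers but no class of their own, called pan-neuronal, were 20.9% of the tag labelled 1For 3, 10.9% of 2Xia 1 and 19.9% of 2Xia 3, and at most 0.690% of the other tags. An unnamed cluster led by LHX9, with 5 of 8 pan-neuronal markers, held 6.86% of the tag labelled 2Xia 2 and 1.46% of 1For 2. Another led by VIP, with 3 of 8, held 6.67% of 1For 2. The pan-neuronal shares of those tags thus leave out cells with these markers. PAX2 or glycinergic neuron-like cells were 14.7% of 1For 1 but 1.37% of 1For 2, a gap in this clustering beyond counting error. Summed over all named neuron classes, however, PAX2 had 245 and 251 CPM in these tags. SLC6A5, of the same marker list, had 67.85 and 20.02 CPM. The border of this class with the non-cortical glutamatergic class also moved with the genes used for clustering. The shares therefore do not settle whether these tags differed in PAX2 neurons.

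Radial glia or progenitor-like cells were 11.2% of 2Xia 1, 8.24% of 2Xia 3 and 6.95% of the tag labelled 1For 3, and 0 cells in each of the other tags. Those other tags held an unnamed cluster with 3 of the 8 markers of that list (HES5, FABP7 and GLI3), under the share needed for the name, which was 10.7% of 1For 1, 9.05% of 1For 2 and 9.33% of the tag labelled 2Xia 2. A further unnamed cluster, with 2 of the 8 (HES5 and FABP7), was 10.1% of 2Xia 1, 16.4% of 2Xia 3 and 23.0% of the tag labelled 1For 3. As these unnamed clusters held part of the list's markers, the shares of the named class cannot be taken to measure all progenitors. The marker list itself had 3 of 8 genes higher in 1For and 2 higher in 2Xia in the comparison of 4 tags described below. Over all genes tested those shares were 9.3% and 4.93%. Without the mesenchymal, muscle, endothelial and epithelial clusters it had 0 in either direction. There only 2.95% and 2.15% of all genes were called, so that 0 says little about progenitors. Cells of the cycling clusters were 18.6% of 2Xia 1, 15.1% of 2Xia 3 and 13.9% of the tag labelled 1For 3, against 1.55% of 1For 1, 2.83% of 1For 2 and 7.13% of the tag labelled 2Xia 2. The first 3 tags had most of these cells in cluster 4, led by RRM2 and E2F2, whereas the tag labelled 2Xia 2 had most (5.49% of its cells) in cluster 24, led by PAX7. Cluster 17, counted as mesenchymal-like, also held 8 of 8 cycling markers and made up 2.93% of 1For 1, 5.21% of 1For 2 and 1.78% of the tag labelled 2Xia 2, so the cycling class leaves out dividing mesenchymal-like cells. Cortical hem or roof plate-like cells, a signalling tissue of the dorsal midline, were 3.97% of 1For 1, 5.12% of 1For 2 and 8.23% of the tag labelled 2Xia 2, and at most 0.107% of the others. Choroid plexus-like cells were 3.79%, 0.457% and 3.02% of those same tags and 0 cells in the others. Ciliated or ependymal-like cells ranged over all 6 tags between 1.28% and 2.12%; this cluster held 6 of 8 floor plate markers as well as 6 of 8 ciliated ones, and its name rests on FOXJ1, a rule set after the clusters were seen.

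Cortical excitatory neuron-like cells of 1For 1 came mostly from another cluster than those of the other tags. In 2Xia 1 (7.25%), 2Xia 3 (2.39%) and the tag labelled 1For 3 (13.6%) nearly all were in cluster 10, led by NEUROD6, SLC17A7 and TBR1. In 1For 1 (6.90%) most were in cluster 27, whose leading genes included the small nuclear RNAs RNU4-1 and RNU4-2 beside TBR1 and NEUROD2. 1For 2 and the tag labelled 2Xia 2 had 0.0914% and 0.137%.

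**Figure D2:**
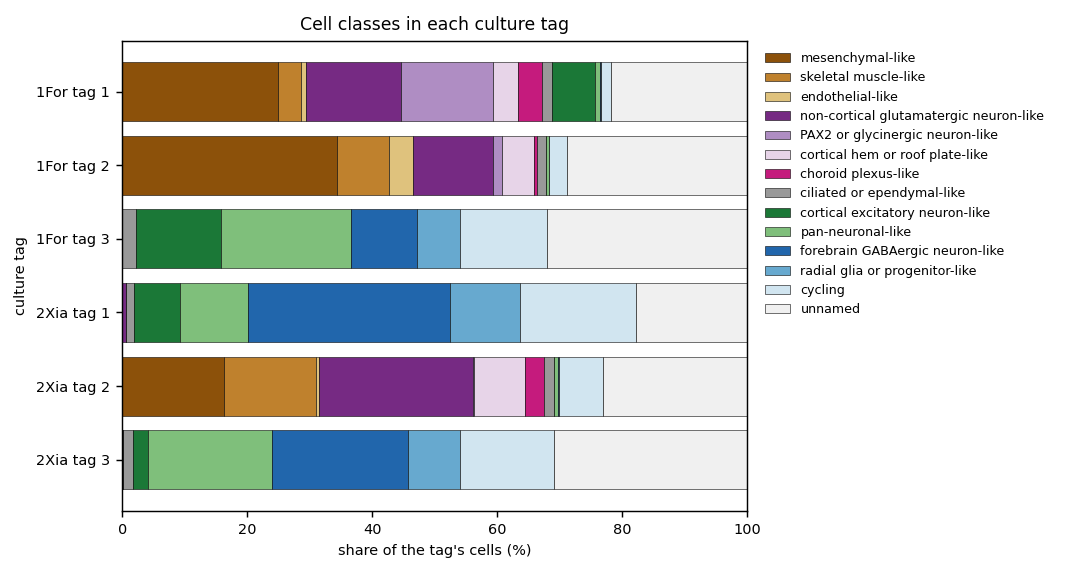
Share of each culture tag's cells (x axis, percent) in each class named from markers, with unnamed clusters in pale grey; every bar adds to 100%. Mesenchymal-like cells (brown) are 24.8%, 34.3% and 16.2% of 1For 1, 1For 2 and the tag labelled 2Xia 2 and absent from the other bars, where forebrain GABAergic neuron-like cells (blue) are 10.6% to 32.4%.

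As labelled, no class separated the protocols. Mesenchymal-like cells were 19.7% ± 17.7 (SD, n = 3) in 1For and 5.40% ± 9.35 (SD, n = 3) in 2Xia (two-sided exact permutation p = 0.4). Forebrain GABAergic neuron-like cells were 3.58% ± 6.05 (SD, n = 3) in 1For and 18.1% ± 16.4 (SD, n = 3) in 2Xia (exact permutation p = 0.3). Over the 13 named classes the unadjusted exact p lay between 0.2 (cycling) and 1, and 3 tags against 3 cannot give a p below 0.1.

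Without the tags labelled 1For 3 and 2Xia 2 the same shares were 29.6% ± 6.68 (SD, n = 2) against 0.0% for mesenchymal-like cells and 0.0862% ± 0.122 (SD, n = 2) against 27.1% ± 7.50 (SD, n = 2) for forebrain GABAergic neuron-like cells. Non-cortical glutamatergic neuron-like cells were 14.1% ± 1.73 against 0.344% ± 0.268 (SD, n = 2 each). No test was made of 2 tags against 2.

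Marker genes were also compared at equal depth. With every cell thinned to 3000 counts, COL3A1, a fibrillar collagen, had a count in 37.8% of 1For 1, 52.3% of 1For 2 and 33.7% of the cells labelled 2Xia 2, and in 5.14%, 1.17% and 1.62% of those labelled 1For 3, 2Xia 1 and 2Xia 3. Unthinned, its shares ran from 3.20% (2Xia 1) to 70.1% (1For 2). In the non-cortical glutamatergic neuron-like cells, which should lack it, the thinned share was 9.59% (median 10629 counts per cell), and in the forebrain GABAergic neuron-like cells it was 2.40% (median 6608 counts). The part of RNA from outside the cell in the low shares was not tested. GAD2, which makes GABA, had a count in 43.3% of 2Xia 1, 41.1% of 2Xia 3 and 23.0% of the cells labelled 1For 3 after thinning, and in 6.38% of 1For 1, 3.93% of 1For 2 and 5.35% of the cells labelled 2Xia 2. Its share was 0.628% in mesenchymal-like cells and 17.8% in non-cortical glutamatergic neuron-like cells. In the latter class SLC17A6, a glutamate marker of its list, had a count in 20.6% after thinning. The transmitter of these cells is therefore not settled by these shares. Unthinned, the GAD2 shares ran from 10.2% (1For 2) to 57.1% (2Xia 3). For TTN the same tags overlapped. TTN, the giant protein of the sarcomere, had a count after thinning in 13.3% of 1For 1, 13.9% of 1For 2 and 21.7% of the cells labelled 2Xia 2, and in 15.4%, 9.06% and 9.32% of those labelled 1For 3, 2Xia 1 and 2Xia 3. MKI67, a protein of dividing cells, had a count in 9.60% of 1For 2, 8.64% of the cells labelled 2Xia 2 and 11.2% of those labelled 1For 3, with 1For 1 between the first and the last of these, and in 17.7% of 2Xia 1 and 16.3% of 2Xia 3.

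Genes were then tested between the protocols on the counts summed per tag, where more cells of a type and more RNA per cell cannot be told apart. With all 6 tags, edgeR's quasi-likelihood test called 0 of 20599 genes at an adjusted p of 0.05 (0.0%), 1602 had an unadjusted p under 0.05, and DESeq2 called 15. The values of the 1For and 2Xia tags did not overlap in 2936 of the 20599 genes (14.3%). For values in random order, 3 tags against 3 do not overlap with a probability of 0.1.

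In all 15 genes called by DESeq2 the tags separated by label, those labelled 1For 3 and 2Xia 2 included. The genes were called by a test of these labels on the same tags, so this separation follows in part from how they were chosen. RMRP, the RNA of a ribonuclease that processes ribosomal and mitochondrial RNA, had 44.2, 24.9 and 45.3 CPM in 1For 1 to 3, and 4.59, 4.35 and 8.91 CPM in 2Xia 1 to 3. All 3 tags labelled 1For were above all 3 labelled 2Xia, including the 2 whose profiles went against their labels. Its log2 difference was 2.66 (edgeR adjusted p = 0.634, unadjusted p = 2.11e-04, DESeq2 adjusted p = 1.86e-06). SNORD89, a small nucleolar RNA, had 4.59, 4.95 and 9.22 CPM in 1For and 1.31, 1.34 and 0.508 CPM in 2Xia (edgeR adjusted p = 0.634, DESeq2 adjusted p = 0.0383). Both are short RNAs without a protein, and like the next 5 genes they were picked from the 15 called by DESeq2 after their values were seen.

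THBS2, a matrix glycoprotein, had 36.9, 45.5 and 13.8 CPM in 1For and 6.78, 9.37 and 7.73 CPM in 2Xia (DESeq2 adjusted p = 0.0383). TNS1, which links integrins to actin, had 106, 127.6 and 60.4 CPM against 28.97, 41.3 and 36.0 CPM (DESeq2 adjusted p = 0.0401). RIPOR2 was lower in 1For, at 43.8, 50.1 and 55.6 CPM against 180.0, 81.3 and 140.1 CPM (DESeq2 adjusted p = 0.0440). PECAM1, an adhesion molecule of endothelium, and CYP26B1, which degrades retinoic acid, were also among the 15 (DESeq2 adjusted p = 0.0440 for each). For THBS2, TNS1 and RIPOR2 the groups did not overlap, but the tags labelled 1For 3 and 2Xia 2 were the nearest to the other protocol. Among listed genes, NR2F1, a transcription factor of caudal ganglionic eminence and posterior cortex, also kept to the labels, with 20.5, 20.8 and 24.7 CPM in 1For and 56.1, 30.5 and 64.0 CPM in 2Xia, yet passed neither test (edgeR adjusted p = 0.634, DESeq2 adjusted p = 0.174).

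**Figure D3:**
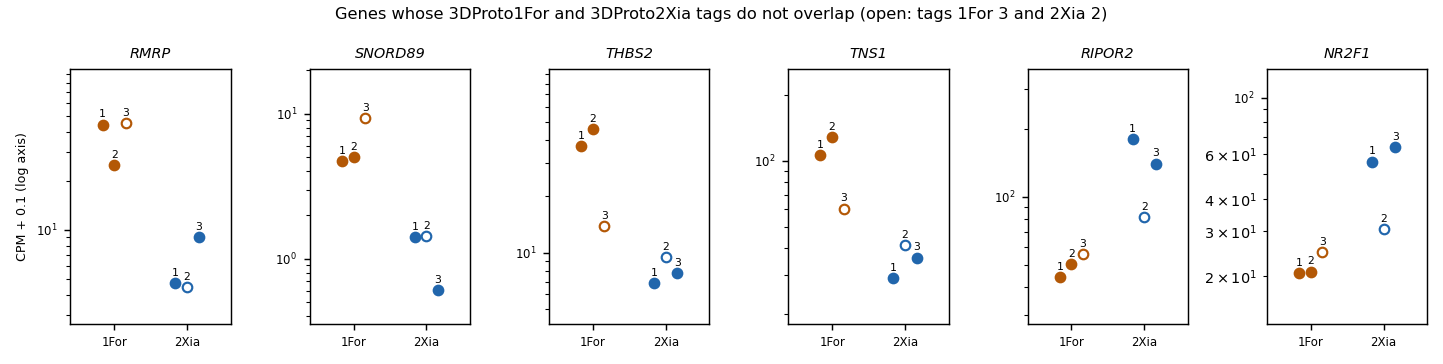
CPM + 0.1 on a log axis in each culture tag for 6 genes whose 1For and 2Xia values do not overlap; points are single tags with their number, and open points are the tags labelled 1For 3 and 2Xia 2. RMRP lies at 24.9 to 45.3 CPM in 1For and 4.35 to 8.91 CPM in 2Xia.

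Without the tags labelled 1For 3 and 2Xia 2, the comparison of 1For 1 and 2 with 2Xia 1 and 3 called 2099 of 22580 genes higher in 1For (9.3%) and 1114 higher in 2Xia (4.93%). The tags were left out because of their profiles, so these p-values are too small and the calls describe these 4 tags. All adjusted p-values below are from this edgeR fit unless stated. Counts of list genes from this fit stand beside these shares over all genes tested, 9.3% higher in 1For and 4.93% higher in 2Xia. They are given out of the full list, genes that did not pass the filter included, unless stated.

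All 8 genes of the mesenchymal list were higher in 1For, where the background of genes called in that direction was 9.3%. The median log2 difference of the list was 6.59, against 0.04 over all genes tested. COL3A1 had 711 CPM in 1For 1, 1445 CPM in 1For 2, 3.72 CPM in 2Xia 1 and 3.10 CPM in 2Xia 3 (log2 difference 8.31 ± 0.44 SE, adjusted p = 3.62e-05), with 11.9 CPM in the tag labelled 1For 3 and 784 CPM in that labelled 2Xia 2. PDGFRA, the receptor for platelet-derived growth factor on mesenchyme and glial precursors, had 40.9 and 68.7 CPM against 1.42 and 1.97 CPM (log2 difference 4.96 ± 0.36 SE, adjusted p = 7.30e-05). PRRX1 and TWIST1, transcription factors of mesenchyme, were also higher in 1For, by 5.57 and 3.10 on the log2 scale.

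Muscle genes formed a second block. Of the 8 genes of the skeletal muscle list, 7 were higher in 1For and MYF5 did not pass the filter on low counts. MYH3, the embryonic myosin heavy chain, had 205 and 280.2 CPM in 1For 1 and 2, against 4.04 and 3.61 CPM in 2Xia 1 and 3 (log2 difference 5.99 ± 0.28 SE, adjusted p = 1.39e-05). The tag labelled 2Xia 2 had 384 CPM, above both 1For tags, and that labelled 1For 3 had 4.34 CPM. Troponins TNNT3, TNNI1 and TNNT2 and the actin ACTC1, parts of the contractile filament, were among the 15 genes with the largest differences. ACTC1 had 24.9 and 43.8 CPM in 1For 1 and 2 and no count in 2Xia 1 and 3, at least 345-fold higher when 3 counts over both 2Xia tags are taken as the floor; it resembles other actin genes, among which reads can be divided.

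Lists of other cells outside the central nervous system or at its edge had 6 of 8 endothelial genes, 4 of 8 neural crest or Schwann genes, 3 of 8 epithelial genes, 3 of 8 endoderm or liver genes, 5 of 8 choroid plexus genes and 2 of 8 pigment cell genes higher in 1For. With doublets removed there were 1 epithelial, 1 endoderm or liver, 3 choroid plexus and 3 pigment cell genes. Several of these counts also rest on single tags. Without 2Xia 3 they were 0 epithelial, 0 endoderm or liver, 1 choroid plexus and 1 pigment cell gene, and without 2Xia 1 they were 1 endoderm or liver and 3 choroid plexus genes. Without 1For 1 there were 3 choroid plexus and 4 pigment cell genes, and without 1For 2 there were 6 epithelial genes and 1 pigment cell gene. The cartilage list had 2 of 8 genes higher in each protocol, and of the microglia or macrophage list 0 of the 4 genes tested were called. PECAM1 had 8.93 and 12.3 CPM against 0.765 and 0.733 CPM (adjusted p = 3.67e-04). HNF4A, a transcription factor of gut and liver, had 15.2 CPM in 1For 1 but 1.84 CPM in 1For 2, against 0.765 and 0.508 CPM (adjusted p = 0.0314), and it was not called without 1For 1, without 2Xia 1 or without 2Xia 3. TEK, an endothelial receptor, was the exception in its list, with 5.43 and 8.02 CPM in 1For and 16.7 and 18.3 CPM in 2Xia (adjusted p = 0.0151).

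IGF2, an imprinted fetal growth factor, had 2335 CPM in 1For 1, 3763 CPM in 1For 2 and 3213 CPM in the tag labelled 2Xia 2. It had 2.08 CPM in 2Xia 1, 2.14 CPM in 2Xia 3 and 6.23 CPM in the tag labelled 1For 3. These groups of tags lay far apart (log2 difference 10.48 ± 0.40 SE between the 4 tags, adjusted p = 6.35e-06). H19, the imprinted long noncoding RNA of the same locus, had 3.26 and 0.896 CPM in 1For against 0.328 and 0.733 CPM in 2Xia and passed no test (adjusted p = 0.154).

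HOX genes, which set position from the hindbrain to the tail, were almost confined to 3 tags in these summed counts. The 39 HOX genes of the A to D clusters summed to 284 CPM in 1For 1, 104 CPM in 1For 2 and 48.5 CPM in the tag labelled 2Xia 2. They summed to 0.276 CPM in the tag labelled 1For 3, 0.316 CPM in 2Xia 1 and 0.394 CPM in 2Xia 3. In 2Xia 1 and 3 together 33 of the 39 had no count, while each had one in 1For 1 or 2. HOXA3 (chromosome 7, 27106184 to 27152581, minus strand, protein coding, hg38) had 56.5 and 22.0 CPM in 1For 1 and 2 and no count in 2Xia 1 and 3, at least 284-fold higher with 3 counts over both 2Xia tags as the floor (adjusted p = 2.87e-04). HOXB3 (chromosome 17, 48548870 to 48604912) had 45.6 and 17.1 CPM against 0 and 0.0564 CPM (adjusted p = 2.01e-04). Its antisense neighbour HOXB-AS3 overlaps it, and since no source used here states that strand was used, reads of this pair cannot be told apart. Of the 14 genes of the hindbrain and spinal cord list, 4 were higher in 1For and 6 did not pass the filter on low counts (11 were called with no filter).

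**Figure D4:**
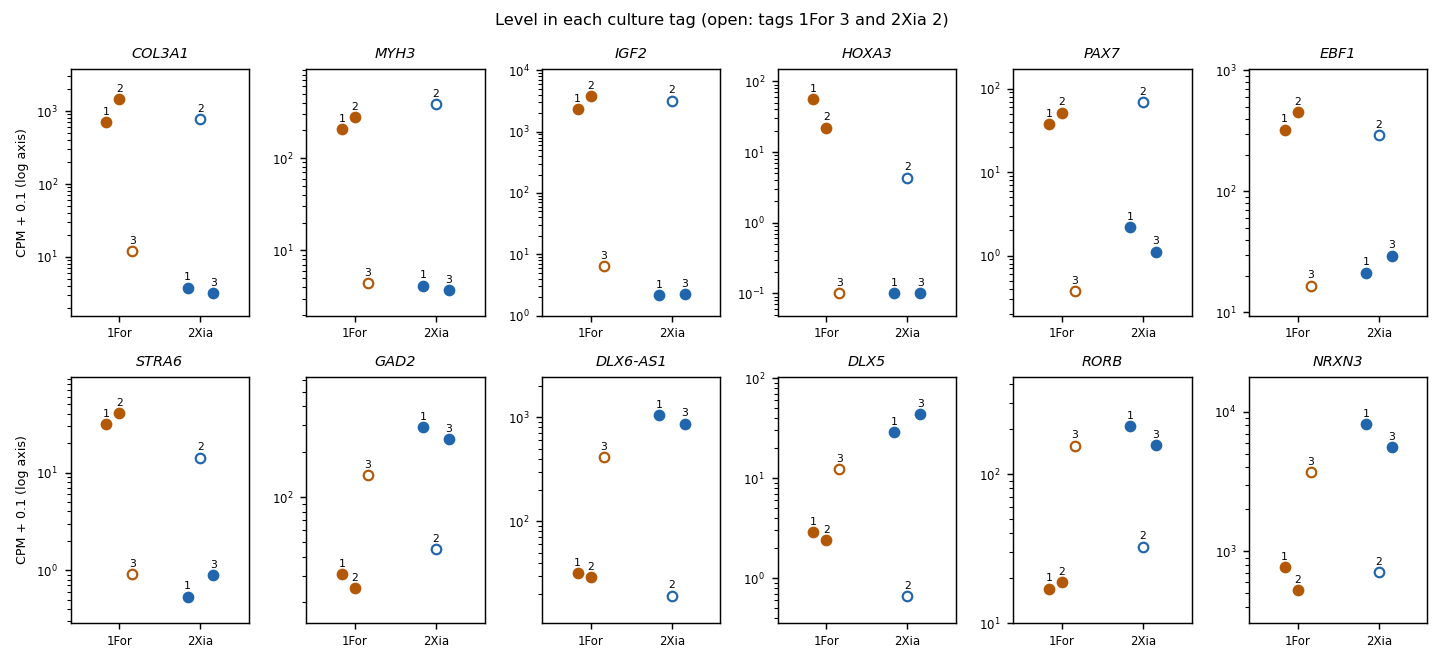
CPM + 0.1 on a log axis in each culture tag for 12 genes; points are single tags with their number, brown for 1For and blue for 2Xia, and open points are the tags labelled 1For 3 and 2Xia 2. In all 12 panels, which are picked genes, the open point of each label lies nearer to the filled points of the other label, as in EBF1 with 16.5 CPM in the tag labelled 1For 3 and 293 CPM in that labelled 2Xia 2. Over all 3213 genes called without these tags, the tag labelled 1For 3 was nearer to the 2Xia mean in 88.2%. The tag labelled 2Xia 2 was nearer to the 1For mean in 74.6%.

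Many genes of the midbrain and caudal diencephalon lists were higher in 1For. In the midbrain and isthmus list 8 of 12 genes were called in that direction and 3 did not pass the filter. PAX7, of the dorsal midbrain and of muscle precursors, had 37.4 and 51.4 CPM in 1For 1 and 2 against 2.08 and 1.015 CPM in 2Xia 1 and 3 (log2 difference 4.93 ± 0.38 SE, adjusted p = 9.63e-05). EN2, an engrailed gene of the midbrain to hindbrain boundary, had 14.5 and 19.9 CPM against 1.97 and 2.09 CPM (adjusted p = 4.54e-04). PAX2, of the isthmus and of spinal interneurons, had 116 and 73.6 CPM against 1.09 and 1.749 CPM (adjusted p = 3.89e-05). In the list of thalamus and caudal diencephalon 5 of 8 genes were higher in 1For, among them TCF7L2, with 279.5 and 418 CPM against 109 and 105 CPM (adjusted p = 0.00177). In the hypothalamus list 1 of 9 genes was higher in 1For and 1 in 2Xia, with a median log2 difference of -0.79. With a further tag left out that median lay between -1.13 (without 1For 2) and -0.09 (without 2Xia 3). FGF8, the signal of the isthmus, did not pass, at 1.57 and 1.27 CPM against 0.984 and 1.19 CPM.

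Markers of forebrain GABAergic neurons were lower in 1For. All 8 were higher in 2Xia, where 4.93% of genes were called in that direction, with a median log2 difference of -3.41. GAD2 had 30.7 and 24.6 CPM in 1For 1 and 2 against 292 and 243 CPM in 2Xia 1 and 3 (log2 difference -3.29 ± 0.23 SE, adjusted p = 6.26e-05). The tag labelled 1For 3 had 140.4 CPM and that labelled 2Xia 2 had 45.0 CPM. DLX6-AS1 (chromosome 7, 96955141 to 97014065, minus strand, antisense) had 31.6 and 28.96 CPM against 1053 and 866 CPM (log2 difference -5.00 ± 0.24 SE, adjusted p = 1.41e-05). It overlaps DLX6 (97005548 to 97011039, plus strand), a homeobox gene that had 0.241 and 0.613 CPM against 1.97 and 2.88 CPM (adjusted p = 0.0168, not called without 2Xia 3), and the division of reads between them is uncertain.

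Other genes were lower in 1For as well. DLX5, a homeobox gene of the ventral forebrain, had 2.78 and 2.31 CPM against 28.75 and 43.9 CPM (log2 difference -3.87 ± 0.32 SE, adjusted p = 1.35e-04), with 12.2 CPM in the tag labelled 1For 3 and 0.558 CPM in that labelled 2Xia 2. NRXN3, a presynaptic adhesion molecule, had 773.5 and 525 CPM against 8202 and 5584 CPM (adjusted p = 1.77e-04). Of the 13 genes of the cortical layer list, 4 were higher in 1For and 2 in 2Xia. RORB, a nuclear receptor of upper layers and among the latter, had 16.9 and 18.6 CPM against 208.6 and 156 CPM (adjusted p = 6.55e-05).

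Subtype lists of the ganglionic eminences were split. In the caudal list 4 of 7 genes were higher in 2Xia (NR2F1, NR2F2, SCGN and CALB2), and HTR3A and VIP did not pass the filter. In the medial list 3 of 10 were higher in 2Xia (SOX6, ST18 and ERBB4) and CRABP1 was higher in 1For, though not by DESeq2 or with doublets removed. In the list of the lateral eminence and striatum 4 of 16 were higher in 1For and 4 in 2Xia, with a median log2 difference of 0.02. NKX2-1, the defining factor of the medial eminence, was at or below 0.620 CPM in every tag. LHX6, which follows it in interneurons, had 15.8 CPM in 2Xia 3 but 1.97 CPM in 2Xia 1, 4.34 CPM in the tag labelled 1For 3 and 1.51 to 2.29 CPM in the others (adjusted p = 0.0838). The unnamed cluster led by LHX6 held 0 cells of the tags other than 2Xia 1 and 2Xia 3.

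Of the excitatory markers of the cortex 0 of 8 were called in either direction, with a median log2 difference of -0.17. Its sign rested on single tags, as it lay between -0.66 (without 2Xia 3) and 0.19 (without 2Xia 1) with a further tag left out. TBR1 of deep layers had 4.104 and 2.22 CPM against 4.70 and 1.97 CPM (log2 difference -0.09 ± 0.51 SE, adjusted p = 0.934). Of the markers of non-cortical glutamatergic neurons 5 of 8 were higher in 1For. EBF1, a transcription factor of differentiating neurons, had 324 and 455 CPM against 21.2 and 29.3 CPM (log2 difference 3.93 ± 0.27 SE, adjusted p = 6.26e-05). SLC17A6, the vesicular glutamate transporter of subcortical neurons, had 14.6 and 15.8 CPM against 8.74 and 8.24 CPM and did not pass (adjusted p = 0.0687).

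Lists of signalling genes differed in their counts. In the retinoic acid list 9 of 12 genes were called higher in 1For and the other 3 did not pass the filter. STRA6, the membrane receptor that takes up retinol, had 31.4 and 40.5 CPM against 0.437 and 0.790 CPM (log2 difference 5.75 ± 0.37 SE, adjusted p = 5.60e-05). RARB, a receptor and target of retinoic acid, had 225 and 261 CPM against 55.0 and 61.7 CPM (adjusted p = 3.15e-04). ALDH1A2, which makes retinoic acid, had 22.4 and 28.8 CPM against 5.36 and 6.37 CPM (adjusted p = 0.00132), and CYP26B1 had 13.0 and 9.95 CPM against 1.53 and 1.58 CPM (adjusted p = 8.42e-04).

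Of the 17 BMP genes, 8 were higher in 1For and 0 in 2Xia. Over all genes tested these shares were 9.3% and 4.93%, which also holds for the WNT, hedgehog, FGF and Notch counts below. The ligand BMP5 had 25.2 and 33.1 CPM against 0.765 and 1.64 CPM (adjusted p = 1.47e-04). The inhibitory SMAD6, a target of the pathway, had 21.5 and 17.5 CPM against 1.53 and 2.43 CPM (adjusted p = 4.15e-04), while BMP7 did not pass, at 63.9 and 46.5 CPM against 71.3 and 82.5 CPM (adjusted p = 0.186). In the WNT list 7 of 18 genes were higher in 1For, among them the R-spondins RSPO1, RSPO2 and RSPO3, which strengthen WNT signals, and WNT7A was higher in 2Xia. RSPO3 and WNT7A were not called without 1For 2 or without 2Xia 3, and WNT7A also not with doublets removed. RSPO1 had 9.42 and 7.36 CPM against 0.219 and 0.169 CPM (adjusted p = 1.88e-04). In the hedgehog list 7 of 15 genes were higher in 1For, among them the co-receptor BOC, with 177 and 264 CPM against 32.2 and 31.6 CPM (adjusted p = 1.82e-04). In the FGF list 4 of 10 genes were higher in 1For and 0 in 2Xia, and in the Notch list 2 of 10 were higher in each, with 4 higher in 2Xia without 1For 1 or without 2Xia 1. SHH itself did not pass, at 7.97 and 2.50 CPM against 3.61 and 5.64 CPM (adjusted p = 0.946).

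Genes of cell state differed too, beside a background of 9.3% of all tested genes higher in 1For and 4.93% higher in 2Xia. Of 16 hypoxia and glycolysis genes 9 were higher in 1For (5 without 2Xia 1) and 0 in 2Xia; NDRG1, a hypoxia-induced gene, had 54.2 and 40.9 CPM against 7.43 and 5.92 CPM (adjusted p = 2.31e-04). Of 12 immediate early genes 7 were higher in 1For, FOSB with 116.5 and 92.0 CPM against 11.9 and 23.4 CPM (adjusted p = 0.00103), while EGR1 did not pass, at 302 and 298 CPM against 129.9 and 330.2 CPM (adjusted p = 0.558). Of 13 mitochondrially encoded genes 0 were called, but 13 were higher in 1For without 1For 1 and 2 without 2Xia 3; the median mitochondrial share per cell was highest in 1For 2 (3.84%). Of 8 cycling genes 4 were higher in 2Xia (2 without 2Xia 1), MKI67 with 56.0 and 97.9 CPM against 205 and 207 CPM (adjusted p = 0.00767), and of 17 synapse genes 6 were higher in 2Xia and HOMER1 in 1For.

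**Figure D5:**
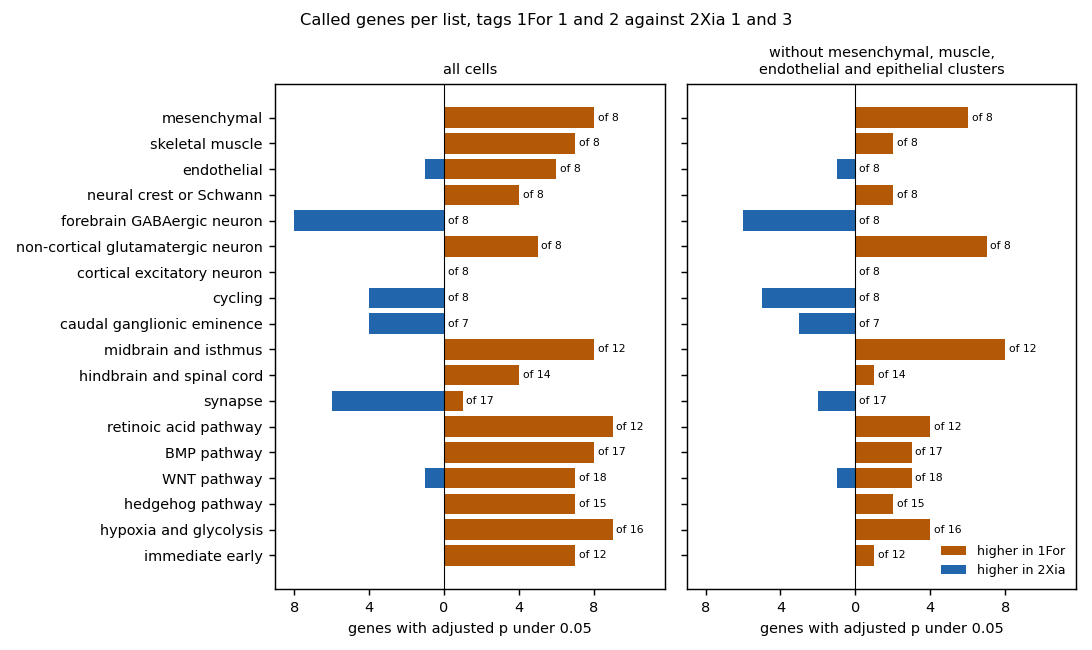
Genes called at an adjusted p of 0.05 in each list (bars to the right: higher in 1For; to the left: higher in 2Xia; "of" gives the list's length), for 1For 1 and 2 against 2Xia 1 and 3, with all cells on the left and without the mesenchymal, muscle, endothelial and epithelial clusters on the right. The midbrain and isthmus list keeps 8 of 12 on both sides, and the immediate early list goes from 7 to 1 of 12. The cycling cluster led by PAX7, which shared leading genes with a skeletal muscle-like cluster, is kept on the right.

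Clusters whose best-matching list was mesenchymal, muscle, endothelial or epithelial, among them 2 unnamed clusters of called doublets (1 mesenchymal, 1 epithelial by their markers), were then left out, while the cycling cluster led by PAX7 was kept. They made up 34.1% of 1For 1, 52.8% of 1For 2 and 34.8% of the tag labelled 2Xia 2, and none of the other tags. Without them, 601 of 20362 genes were higher in 1For (2.95%) and 438 in 2Xia (2.15%). Of the 3213 genes called with all cells, 909 (28.3%) were also called without these clusters, and they were 87.5% of the 1039 called there. The midbrain and isthmus list kept 8 of 12 genes higher in 1For, and the non-cortical glutamatergic list then had 7 of 8. PAX7 is a gene of the midbrain list. The kept cycling cluster led by PAX7 was 0.345% of 1For 1 and 1.74% of 1For 2. It shared PAX7, LINC01266 and STK26 as leading genes with a skeletal muscle-like cluster. Whether its cells were muscle precursors was not tested, so this fit may not be free of muscle. The forebrain GABAergic list kept 6 of 8 higher in 2Xia.

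Other lists lost calls in that fit, where 28.3% of all 3213 genes called with all cells were still called. The retinoic acid list had 4 of 12 (ALDH1A2, CYP26B1, RARB and STRA6), the BMP list 3 of 17, the WNT list 3 of 18 (the R-spondins), the hedgehog list 2 of 15 (BOC and CDON), the immediate early list 1 of 12 and the ER stress list 1 of 13, both times ATF3, and the hypoxia and glycolysis list 4 of 16. The median log2 difference of the lists went from 2.86 to 1.79 for retinoic acid, from 1.57 to 0.80 for BMP, from 0.92 to 0.54 for WNT and from 1.05 to 0.27 for hedgehog. It went from 1.29 to 0.52 for immediate early genes, from 0.88 to 0.68 for ER stress and from 1.13 to 0.78 for hypoxia and glycolysis. The synapse list had 2 of 17 genes higher in 2Xia and 0 in 1For, and its median went from -0.83 to -0.27. The mesenchymal list still had 6 of 8 called higher in 1For, in cells outside the mesenchymal clusters. COL3A1 had a count in 9.59% of the non-cortical glutamatergic neuron-like cells and 2.40% of the forebrain GABAergic neuron-like cells after thinning, and the part of RNA from outside the cell in these calls was not tested. IGF2 was called in that fit with a smaller log2 difference, 7.58 against 10.48 with all cells (adjusted p = 1.09e-05). HOXA3 was not called (adjusted p = 0.1175), although its fitted log2 difference was nearly as large, 11.62 against 12.09; with no count in 2Xia 1 and 3 these fitted values depend on the prior count.

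No class had 20 cells in every tag, or in each of the 4 tags, so no class was tested on its own. All named neuron classes together (149 to 574 cells per tag) gave 0 of 14180 called genes with all 6 tags. There 933 genes had an unadjusted p under 0.05. The unnamed clusters led by LHX6 (7 of 8 forebrain GABAergic markers), LHX9 and VIP (5 and 3 of 8 pan-neuronal markers) were not in these sums. Without the tags labelled 1For 3 and 2Xia 2, 306 of 15702 genes were higher in the neurons of 1For (1.95%) and 171 in those of 2Xia (1.09%). These sums hold different neuron classes in the protocols. Within neurons, PAX2 had 245 and 251 CPM in 1For 1 and 2 against 1.51 and 3.77 CPM in 2Xia 1 and 3 (log2 difference 6.49 ± 0.34 SE, adjusted p = 9.997e-06). DLX6-AS1 had 81.7 and 85.4 CPM against 1802 and 1395 CPM (log2 difference -4.20 ± 0.26 SE, adjusted p = 3.13e-05).

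The largest differences within neurons were HOXB-AS3, HOXA3, HOXB3, HOXC4 and HOXD10 towards 1For and, among others, IL13RA2, LHX6, PDZRN3 and DLX6-AS1 towards 2Xia. The LHX6 difference does not include the unnamed cluster led by that gene, which was not in the sums. PDZRN3, a ubiquitin ligase, had 92.4 and 59.7 CPM against 1873 and 1169 CPM (adjusted p = 1.37e-04). HOXA3 had 86.7 and 27.0 CPM in neurons of 1For 1 and 2 and no count in those of 2Xia 1 and 3 (adjusted p = 0.00147).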

How the data were processed

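The authors deposited 1 matrix of expected counts (60286 genes by 43693 cells), not scaled; 54.3% of its 215531617 entries are whole. Per the submitters' processing notes, Salmon 1.7.0, alevin, Seurat 4.1.1 and hg38 were used; no source used here states the strand or the annotation. Coordinates are those of GENCODE 29.

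Cells were grouped by the tag in their names. Cells were clustered by Leiden (2000 variable genes, 30 components, 20 neighbours, resolution 0.8; leidenalg 0.10.2) and named from markers that at least 10% of a cluster's cells held at 2-fold or more; at least 3 markers and 40% of a list were needed, and the ciliated name also FOXJ1, set after the clusters were seen. Doublets were called in 558 cells (11.2%) and kept.

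Counts were summed per tag, rounded, filtered with filterByExpr, TMM-scaled and tested with edgeR 4.0.16 (glmQLFit, robust) at a Benjamini-Hochberg adjusted p of 0.05. That test gives no SE. The SE printed was derived from it, as the absolute log2 difference divided by the square root of the F statistic, and is approximate. DESeq2 1.42.0 was an alternative. The procedure was tested on simulated data. Values are TMM-scaled CPM, except that correlations and summed lists use plain CPM. Named were listed genes and the 15 largest differences per direction (5 in neurons) among called genes with groups that do not overlap and a mean of at least 5 CPM. The cells, lists and tags left out were chosen with earlier results of these data known. Some genes are not reported here.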

Additional observations from a re-analysis of the deposited data

How the results depend on the processing

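With all 6 tags, 0 genes were called by edgeR with median-ratio size factors, no filter on low counts, no robust option, a spread shared with all Proto tags, doublets removed, equal cell numbers, the mesenchymal, muscle, endothelial and epithelial clusters left out, or any single tag left out (0 to 0); DESeq2 called 15 and leaving out the tags labelled 1For 3 and 2Xia 2 gave 3213. With the tag number as a replicate block 0 were called (1788 at an unadjusted p under 0.05). Deviations of same-numbered tags from the means of their labels correlated at -0.466, 0.701 and 0.488. Those means include the tags labelled 1For 3 and 2Xia 2, whose profiles weigh on every deviation. These values therefore cannot decide whether the numbers pair the tags, and the numbers were not taken to do so. Leaving out the clusters, and every alternative to the fit without those 2 tags, were chosen after seeing the data. In that fit the calls ranged from 2601 (equal cell numbers) to 4799 (spread shared), with 1039 when the mesenchymal, muscle, endothelial and epithelial clusters were also left out and 2035 to 3966 when a further tag was left out; 2035 was without 2Xia 1, and a lone tag was then assumed to vary like the other group. No filter gave 4537. In neurons, 0 calls became 477 without the 2 tags. Of the 30 genes named by size, none changed direction under these alternatives. They were chosen as the largest differences without overlap in the same tags, so their direction could hardly change and lends no support. Without the clusters, 7 of the 25 still tested were no longer called. Among these were HOXA3, HOXC4, HOXB-AS3, HOXD10, HOXC6 and HOXB7, whose fitted log2 differences stayed between 9.68 (HOXC6) and 11.62 (HOXA3). Without 2Xia 1 or 2Xia 3 HOXC4, HOXB-AS3, ITM2A, HOXC6 and HOXB7 were no longer called. Of 193 listed genes called without the 2 tags, 167 were tested without the clusters, where 89 were called and 3 had changed sign; 149 and 154 of the 193 were called without 2Xia 1 and without 2Xia 3. The share difference (1For minus 2Xia) of cycling cells moved from -7.50 to -14.6 percentage points without the 2 tags, and that of endothelial-like cells from 1.37 to 3.63 at resolution 0.4 and to 0.0 with doublets removed, where no cluster got that name. With doublets removed that of mesenchymal-like cells was 8.19 in place of 14.3. A cluster of 196 cells with 8 of 8 mesenchymal markers then got no name, because another class led its top genes. At resolution 0.4 no cluster was named PAX2 or glycinergic, cortical hem or pan-neuronal (differences of 0.0). With the genes of the non-marker lists kept out of the variable genes, no cluster was named pan-neuronal. A cluster of 137 cells with 3 of 8 skeletal muscle markers then also stayed unnamed. In that setting the PAX2 or glycinergic class held more cells than in the main clustering, and the non-cortical glutamatergic class fewer. Tests within classes, with 20 or 50 cells or with the block, were not run because no class had enough cells. Depth limits 1For 3 most, with 331 cells and 3624668 counts.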

Other observations

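Some clusters belonged to a single tag or to some of the tags only. An unnamed cluster led by VIP, NOS1, RET and HAND2-AS1 held 6.67% of 1For 2 and 0 cells of every other tag. Over all cells, VIP, a neuropeptide, had 28.8 CPM in 1For 2 and at most 0.656 CPM in the other tags, and NOS1, which makes nitric oxide, had 21.4 CPM in 1For 2 and 3.72 to 5.42 CPM in the others. A cluster of 18 cells led by HNF4A, CDH17 and MUC13, genes of intestinal epithelium, held 2.24% of 1For 1 and 0.457% of 1For 2; all 18 cells were called doublets, so it stayed unnamed. An unnamed cluster led by LHX9 held 6.86% of the tag labelled 2Xia 2, 1.46% of 1For 2 and 0.345% of 1For 1. An unnamed cluster whose leading genes included DTHD1, ATP13A4, SLC6A11, GPC5 and PMP2 held 23.0% of the tag labelled 1For 3, 16.4% of 2Xia 3 and 10.1% of 2Xia 1, and 1 cell of the other tags. PMP2, a fatty acid-binding protein of glia, had 0.845 and 0.0943 CPM in 1For 1 and 2 against 6.34 and 11.0 CPM in 2Xia 1 and 3.

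RNU4-2, a spliceosomal RNA with near-identical copies among which reads can be divided, had 450 CPM in 1For 1, 68.5 CPM in 1For 2 and 42.8 CPM in the tag labelled 1For 3, against 21.9, 20.1 and 28.5 CPM in 2Xia 1 to 3 (DESeq2 adjusted p = 0.0493, edgeR adjusted p = 0.634). It kept to the labels in all 6 tags, as RMRP and SNORD89 did. All of them were among the 15 genes that DESeq2 called by a test of these labels.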
